A study of Mus musculus with 7 samples.

Results

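Long intergenic noncoding RNAs (lincRNAs) are transcripts that lie between protein-coding genes and are not translated. Many are restricted to a tissue or stage, while a few, such as Malat1, are abundant in most cells. Some, such as H19, come from imprinted loci and are high in the embryo. The members described here are the lincRNA probes of an Agilent mouse array that were measurable in every one of 7 sorted embryonic populations. They were chosen by the scanner's own flag for a spot well above background, which had to be set on all 7 arrays, with chromosomes X and Y left out. Of 16251 lincRNA probes on the array 7340 carried the flag on all arrays, 253 of these lay on X and none on Y, and 7087 members remained. They cover 2423 of the array's 3555 lincRNA regions.

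The cells came from C57BL6J mouse embryos that carry GFP knocked into Osr1, a gene of intermediate mesoderm and of the early kidney, so GFP marks only the cells in which that locus is active. All 7 populations share this genotype. At embryonic day 8.5 (E8.5) the embryo was sorted into GFP-positive (GFP+) and GFP-negative (GFP-) cells. At E9.5 the caudal part of the embryo gave 3 populations: cells gated as GFP+, Itga8-positive and Pdgfra-negative, the other GFP+ cells, and GFP- cells. At E11.5 the metanephric mesenchyme, the tissue that forms nephrons, gave gated cells and other GFP+ cells, with no GFP- array. In each population 10 ng of RNA was amplified and hybridised to 1 array with 1 dye, so there are no replicates, and no test across samples can be made. A difference below is between 2 arrays, and its size is set only against the spot-to-spot noise, which for probes spotted 10 times gave a standard deviation (SD) of 0.10 within an array and 0.14 for a difference. In these mixed samples a smaller share of cells of a type and less RNA per cell cannot be told apart.

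The array of E8.5 GFP- cells stood apart. There 56.2% of spots were well above background, against 70.3% to 84.1% on the other 6 arrays. Of 1982 autosomal lincRNA probes that passed on 6 arrays only, 1772 failed on that array alone, and without it 8859 probes would have been members. All 11 red blood cell markers were well above background there, with a median level of 6.50, and all 11 also on the E9.5 GFP- array, with a median of 4.96, while on the other arrays 5 to 9 of 11 passed and the medians lay between -4.28 and -1.57. Osr1 was well above background on the 5 GFP+ arrays and on neither GFP- array. Itga8 was at 2.15 and 2.82 in the gated cells of E9.5 and E11.5 and at 0.20 and -1.31 in the other GFP+ cells. Pdgfra was at -0.62 and -3.64 in the gated cells and at 3.32 and 4.02 in the others. The gated and GFP- arrays of E9.5 were on slide 2 and the other 5 arrays on slide 1, so the E9.5 gate, other GFP+ against GFP- cells of E9.5 and the gated comparison between stages also compare slides.

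Each level is the processed signal as a log2 value, scaled by subtracting the array's 75th percentile on the same scale, so that 0 marks a bright spot at that percentile. Levels of different probes also differ with how well each probe binds, so an order of probes by level is a description of spots. The sequences below show the kinds of member on which the results turn, each a 60-base probe with its position in the mouse build mm9. The first 3 lie beside the developmental genes Trim71 and Sall1.

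Beside Trim71, reverse strand, chr9:114416477-114416536: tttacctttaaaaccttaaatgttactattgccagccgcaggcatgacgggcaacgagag
Beside Trim71, forward strand, chr9:114418097-114418156: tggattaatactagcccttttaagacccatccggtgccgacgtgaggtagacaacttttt
Near Sall1, forward strand, chr8:91574577-91574636: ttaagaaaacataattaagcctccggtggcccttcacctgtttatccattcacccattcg

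The next 3 belong to the noncoding RNAs H19 and TUG1, which the array files name, and to a locus of which some members were highest in E9.5 GFP- cells.

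H19, reverse strand, chr7:149761693-149761752: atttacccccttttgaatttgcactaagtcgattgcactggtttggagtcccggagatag
TUG1, reverse strand, chr11:3540323-3540382: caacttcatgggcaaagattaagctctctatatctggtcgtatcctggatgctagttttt
Beside 2610017I09Rik, forward strand, chr1:42705151-42705210: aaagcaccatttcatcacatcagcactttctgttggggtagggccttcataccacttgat

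The last 4 are members that varied little, and capitals mark a TG repeat of at least 10 bases. The fourth has no repeat and is the member with the smallest range.

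Forward strand, chr17:71267639-71267698: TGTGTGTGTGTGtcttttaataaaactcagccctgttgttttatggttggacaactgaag
Forward strand, chr6:92040785-92040844: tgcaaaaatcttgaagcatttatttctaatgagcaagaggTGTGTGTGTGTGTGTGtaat
Reverse strand, chr5:52506741-52506800: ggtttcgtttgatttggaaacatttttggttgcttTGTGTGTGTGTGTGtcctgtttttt
Forward strand, chr11:59220445-59220504: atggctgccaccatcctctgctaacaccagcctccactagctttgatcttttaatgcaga

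Members were common on all autosomes and on both strands. Of the lincRNA probes 45.2% were detected on all 7 arrays, against 55.5% of the other 43054 probes. By chromosome 35.5% to 53.5% of lincRNA probes were members, lowest on chromosome 10 and highest on chromosome 17. The forward strand held 3632 members and the reverse strand 3455. There were 946 regions with 1 member and 457 with 5 or more, up to 20. Members of one region share their locus and are not independent of each other. The flag is a fixed limit on the background-subtracted signal of each array, between 11.4 and 24.5 signal units and highest on the E8.5 GFP- array. The member nearest to it had a signal of 24.50 on that array, where the limit was 24.49, and a level of -3.28. The nearest probe outside had 24.48 and a level of -3.19, so members and non-members meet at levels of about the same size.

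Members were dimmer than the other detected probes, with a similar median range and fewer wide ranges. The median over members of the mean level was -1.13, against 0.07 for the 23010 other detected probes. Over the 7 arrays the range of a member, its highest minus its lowest level, had a median of 1.05. It was under 1 for 46.7% of members, over 2 for 12.2% and over 4 for 43 members (0.607%) in 28 regions. The other detected probes had a median range of 1.08, with 15.6% over 2 and 2.06% over 4. Since a probe that dropped into the background in any population is not a member, these ranges leave out lincRNAs that were off somewhere.

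**Figure D1:**
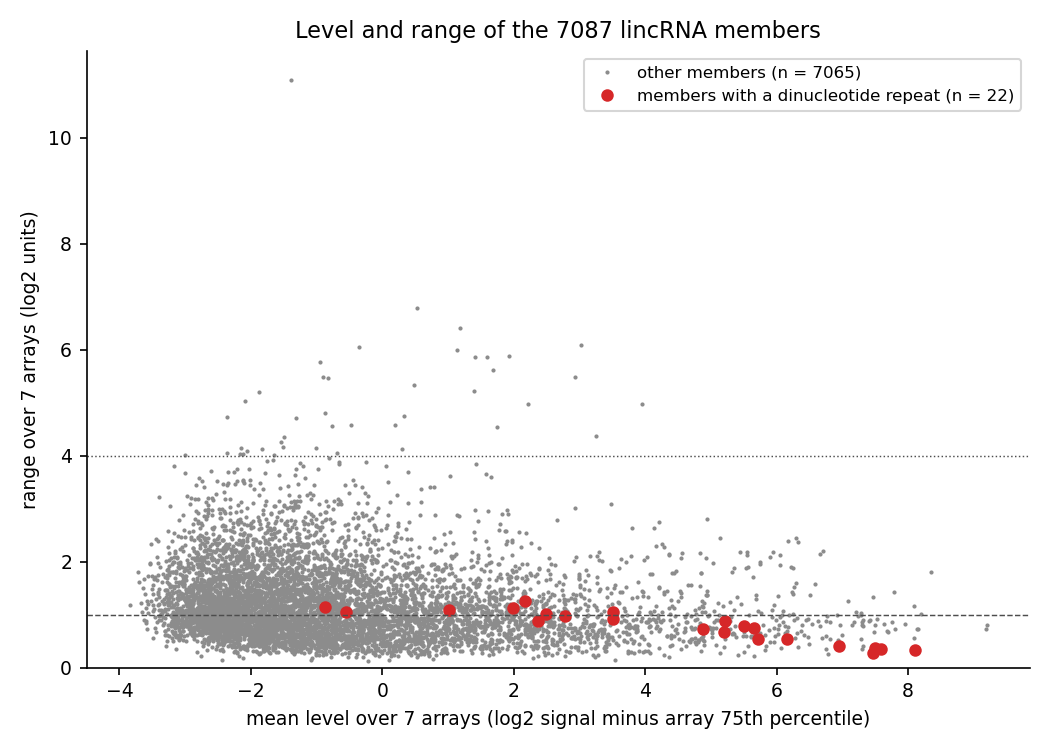
Each point is 1 of the 7087 members, with its mean level over the 7 arrays (log2 signal minus the array's 75th percentile) on the horizontal axis and its range over the arrays (log2 units) on the vertical axis, and the dashed and dotted lines are at 1 and 4. The 22 members with a TG repeat, in red, all have ranges under 2, and 1 member stands alone at a range of 11.09, which rests on 1 spot that the scanner software flagged as non-uniform.

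The 7 comparisons share arrays: the E9.5 populations are set against each other, and both gated arrays and both other GFP+ arrays also enter the comparisons between stages. Most shares of members past 2-fold stayed near those of all detected probes, which include the members. The widest gap was for other GFP+ cells lower from E9.5 to E11.5, at 8.09% against 11.0%, or 11.9% of the other detected probes. At E8.5, 311 members (4.39%) were at least 2-fold higher in GFP+ cells, against 5.79% of all 30097 detected probes, and 363 (5.12%) were lower, against 4.87%. The split was 415 higher and 267 lower with unscaled values. With no detection requirement it was 1834 (11.7%) and 1290 (8.24%) of 15664 lincRNA probes. That setting takes in spots below the detection limit and has no share over all probes beside it. At E9.5, 365 members (5.15%) were at least 2-fold higher in gated than in other GFP+ cells, against 3.95% of all detected probes, and 234 (3.30%) were lower, against 3.66%. The split was 98 and 39 with another background correction (normexp). With no detection requirement it turned to 1164 higher (7.43%) and 2505 lower (16%) of 15664 lincRNA probes. This too takes in undetected spots and has no share over all probes beside it. Of all spots 84.1% were well above background on the other GFP+ array and 72.4% on the gated array. Gated cells of E9.5 against GFP- cells had 327 members (4.61%) at least 2-fold higher, against 3.90% of all detected probes, and 183 (2.58%) lower, against 3.46%. With unscaled values the split was 215 and 306. Other GFP+ cells of E9.5 against GFP- cells had 242 members (3.41%) higher, against 3.32%, and 222 (3.13%) lower, against 3.20%, and with unscaled values 133 and 402.

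At E11.5, 475 members (6.70%) were at least 2-fold higher in gated than in other GFP+ cells, against 7.70% of all detected probes, and 439 (6.19%) were lower, against 6.39%. The split was 373 and 559 with the percentile taken over probes detected on all arrays, and 323 and 633 with unscaled values. From E9.5 to E11.5, gated cells had 363 members (5.12%) at least 2-fold higher, against 4.87% of all detected probes, and 531 (7.49%) lower, against 6.69%. With quantile normalization the split was 464 and 421. Over the same stages other GFP+ cells had 435 (6.14%) higher, against 5.58%, and 573 (8.09%) lower, against 11.0%. The split was 594 and 384 with quantile normalization, 544 and 418 with the percentile over detected probes and 582 and 387 with unscaled values, so its direction is not settled. Over the 7 comparisons the median difference over members lay between -0.12 and 0.10.

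**Figure D2:**
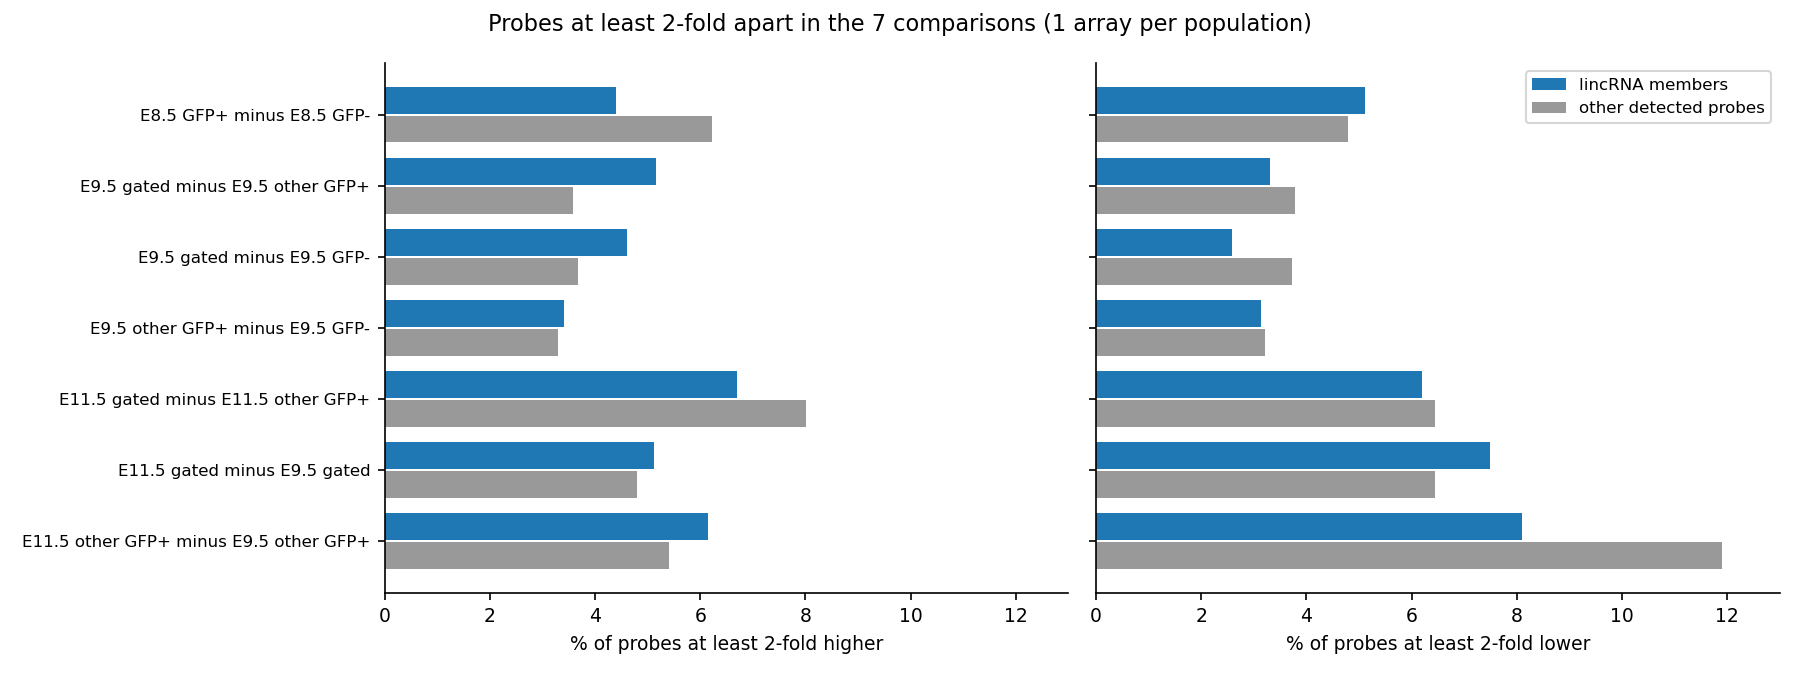
Bars give the percent of lincRNA members (blue) and of other detected probes (grey) at least 2-fold higher (left) or lower (right) in the first population of each comparison, with 1 array per population and no error bars. Members lie below the other probes for E8.5 higher, at 4.39% against 6.23%, and above them for the E9.5 gate higher, at 5.15% against 3.58%. The widest gap is for other GFP+ cells lower at E11.5 than at E9.5, at 8.09% against 11.9%.

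Of the 10 brightest members 2 lay in the Malat1 locus and 4 shared bases with probes outside the lincRNA set. The brightest was a reverse strand probe of the region chr19:5801802-5802597, on the strand of Malat1, a nuclear RNA of most cell types. Its levels were 8.73 and 8.98 in GFP+ and GFP- cells of E8.5, 9.26, 9.32 and 9.03 in gated, other GFP+ and GFP- cells of E9.5, and 9.51 and 9.54 in gated and other GFP+ cells of E11.5. It was thus lowest at E8.5 and highest at E11.5. The second brightest, in chr2:151992806-152025456, had a mean level of 9.18 and shares 27 bases with the opposite strand of a probe for Rps15a, a ribosomal protein gene. The other 3 shared 28 to 41 bases with further probes. For the member in chr3:62727150-62758225 these probes carry no gene name. The member in chr13:74971657-75025450, with 41 shared bases, had a mean level of 8.15. The third brightest, in chr12:82495575-82516300 with a mean of 8.36, and the member in chr10:83325890-83402790 with 7.96 had no such match. What such members measure, the region or the copy, was not tested. Over all members 198 (2.79%) shared at least 25 bases with a gene probe of the array, with a median level of 0.92. The 97 that matched the opposite strand had a median of 2.94 and the 102 that matched the same strand one of -0.33.

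TG repeats marked members of high and even level. Of 23 autosomal lincRNA probes with TGTGTGTGTG 22 were members, with a median mean level of 5.04; 12 were above a level of 4, none had a range over 2, and 15 had a range under 1. On the other strand, all 16 probes with CACACACACA were members, with a median level of 1.31. The repeat itself was rare, in 0.147% of lincRNA probes and in 0.297% of all probes of the array, and a repeat can bind labelled cDNA of many loci. The letters AATAAA, those of the common polyadenylation signal, stood in 3.92% of lincRNA probes and in 9.71% of all probes; 240 of 614 lincRNA probes with them (39.1%) were members, against 45.2% of all lincRNA probes. The reverse complement TTTATT was in 3.08% of lincRNA probes, and 42.9% of these were members.

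Base composition moved with detection. Members made up 34.3% of the 236 lincRNA probes under 30% GC, 32.1% with 30% to 40%, 41.5% with 40% to 50%, 67.4% with 50% to 60% and 88.7% with 60% or more. The median range of members was 1.04 under 30% GC and then fell over the other bins, from 1.27 to 1.15, 0.87 and 0.60. How far base composition sets detection here was not tested.

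**Figure D3:**
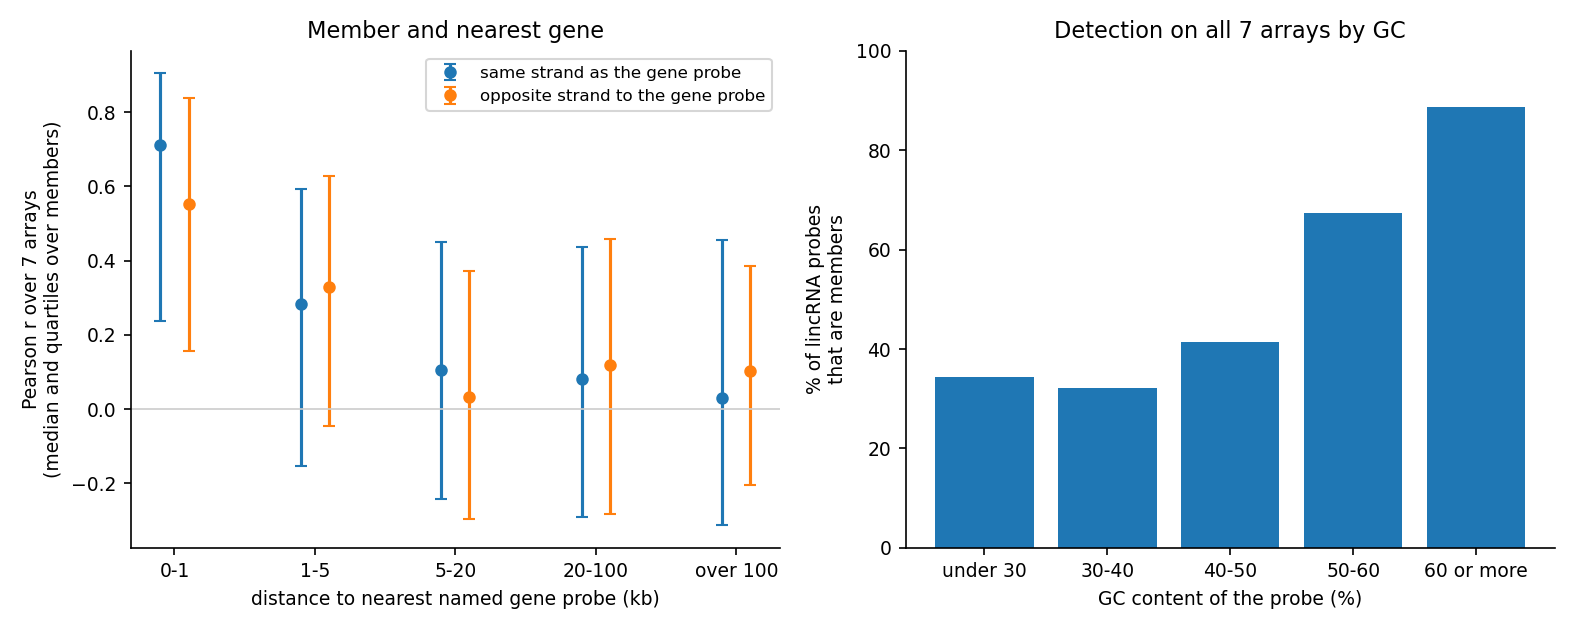
Left, Pearson's r over the 7 arrays between each member and the nearest probe of a named gene, by distance in kb, as the median (points) and quartiles (bars) over members on the same strand as the gene probe (blue) or the opposite strand (orange). Right, the share of lincRNA probes that are members, by GC content of the probe. The medians fall from 0.71 and 0.55 under 1 kb to 0.03 and 0.10 beyond 100 kb, and the shares rise from 32.1% in the second bin to 88.7%.

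Members close to a named gene tended to follow it. Under 1 kb the median correlation with the nearest gene's probe over the 7 arrays was 0.71 for 311 members on the gene's strand and 0.55 for 339 on the other strand. From 1 to 5 kb the medians were 0.28 and 0.33, and from 5 to 20 kb 0.11 and 0.03. These correlations rest on 7 arrays that all points share, and the gene had to be detected on each of them. The nearest named gene probe was a median of 14.6 kb away. Whether members on a gene's strand at so short a distance read the gene's own transcript was not tested.

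Forward and reverse members of a region were different probes, and their levels were close in some regions and far apart in others. In the 756 regions with members on both strands the correlation between forward and reverse mean levels was 0.46, the median gap was 0.93 log2 units, and the strands were less than 1 apart in 397 regions and more than 4 apart in 35. The largest gap was in chr11:60728207-60745369, with a mean of -2.70 over 6 forward members and 7.32 for 1 reverse member, which carries a CA repeat. In chr13:34693404-34717987 the forward member was at -2.57 and the reverse member at 6.16, and in chr4:8351625-8358785 they were at -3.29 and 4.87. At the other end the forward and reverse means of chr11:48603904-48611829 were both -1.46, those of chr5:113920850-113950200 -1.71 and -1.72, and those of chr1:95871175-95886625 -1.35 and -1.36. Differences between populations were closer within a region and strand, where their SD was 0.44 to 0.60, than over all members, where it was 0.54 to 0.73. How far the amplified and labelled cDNA kept the strand was not tested.

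The noncoding RNAs that the array files name differed in how far they varied, with ranges of 0.29 to 4.14 over their members, against a median of 1.05 over all members. All 5 probes of H19, an imprinted RNA of the embryo, were members. The brightest was at 8.04 and 7.10 in GFP+ and GFP- cells of E8.5, 7.70, 7.69 and 6.71 in gated, other GFP+ and GFP- cells of E9.5, and 7.53 and 7.49 in the E11.5 cells. Both GFP- arrays were thus the lowest. Over the 5 probes the GFP+ minus GFP- difference at E8.5 was 0.79 to 0.94, and the E9.5 gated minus GFP- difference was 0.84 to 1.14, larger than the spot noise but at least 2-fold for only 1 probe. The E9.5 and E11.5 gates differed by at most 0.17 for H19. TUG1, a widely expressed RNA, had 5 of 5 probes as members with ranges of 0.61 to 0.74.

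NEAT2 is the name in the files for Malat1. Its 3 probes were all members and were lowest in E8.5 GFP+ cells, at 0.24, 0.61 and 0.94, and highest in the other GFP+ cells of E11.5, at 3.01, 3.01 and 3.33. The gated cells of E11.5 lay between, at 2.05, 2.12 and 2.54. From E9.5 to E11.5 the other GFP+ cells were higher by 1.77 to 1.90. The first of these probes has all 60 bases in common with a Malat1 probe. Other members of the Malat1 locus rose less in that comparison. The 3 of chr19:5801802-5802597, on the same strand, rose by 0.06 to 0.65. The 3 of chr19:5795690-5797464, on the forward strand, rose by 0.48 to 1.12. Of KCNQ1ot1 4 of 5 probes were members, with ranges of 0.29 to 2.52, of NRON 2 of 5, of NEAT1 and lincP21 1 of 5 each and of BRN1-A 1 of 4, whose range was 4.14. PINC and HOTAIR had none of 5. No HOTAIR probe was measured in all populations.

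A list of 62 known noncoding RNA genes, not chosen for how they moved, had named gene probes for 30, of which 25 were detected on all 7 arrays. At E8.5 3 of the 25 were at least 2-fold higher in GFP+ cells and 0 lower, beside 5.79% and 4.87% of all detected probes: Meg3, Mirg and Peg13, imprinted RNAs, by 1.64, 1.50 and 1.46. At the E9.5 gate Peg13 alone passed, higher by 1.04, beside 3.95% and 3.66%. In gated against GFP- cells of E9.5 0 passed on either side, beside 3.90% and 3.46%, and in other GFP+ against GFP- cells 2 were higher and 1 lower, beside 3.32% and 3.20%. At the E11.5 gate Snhg1 and Snhg3, hosts of small nucleolar RNAs, were higher by 1.02 and 1.05, beside 7.70%. Both are just past 2-fold on 1 probe each. The median of all detected probes at this gate moved by -0.149 with the percentile over detected probes and by -0.212 with unscaled values. Kcnq1ot1, Snhg11 and Peg13 were lower at the E11.5 gate, with differences of -1.99, -1.93 and -1.30, beside 6.39%. The Kcnq1ot1 value is of 1 gene probe, and the 4 KCNQ1ot1 members differed by only -0.17 to 0.20 at this gate. From E9.5 to E11.5 0 were higher and 4 lower in gated cells, beside 4.87% and 6.69%, and 4 were higher and 3 lower in other GFP+ cells, beside 5.58% and 11.0%.

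In what follows the largest differences of a comparison are those of members whose region and strand went the same way. That is, any other members of the region and strand had a difference of the same sign, whatever its size. At E8.5, the 3 largest toward GFP+ cells were on the strand of Snord123, a small nucleolar RNA gene, 2 in the region chr15:32167516-32174427 and 1 in chr15:32167516-32174417, which overlaps it. They were at 0.10, 0.21 and 0.64 in GFP+ cells and at -2.64, -2.73 and -2.19 in GFP- cells. They overlap a Snord123 probe by 26 to 57 bases, and followed it with r between 0.97 and 0.99 over 7 arrays, so they are 3 readings of one locus. The 8 members of that strand in both regions differed by 1.25 to 2.94. With normexp the median of the 3 was 1.65 in place of 2.83.

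Toward GFP- cells of E8.5 the largest differences were in chr4:109071198-109078776, near Eps15. Its 4 members were at -3.81 to -3.14 in GFP+ cells and at -0.54 to 0.63 in GFP- cells, with differences of -4.09, -4.05, -3.67 and -2.83. On the E9.5 GFP- array they were at -1.99 to -1.12, the second highest value of each, and elsewhere between -3.71 and -1.87. With normexp the median of the 2 largest was -2.25 in place of -4.07. The member in chr15:12122307-12122758, near Gm2581, was at -3.05 and 0.96 in the E8.5 populations, a difference of -4.01. At E9.5 it was at -2.76 in GFP- cells, below the -1.07 of gated cells. The red blood cell markers were highest on the 2 GFP- arrays: their summed level was 11.49 and 10.62 log2 units there, and 0.13 to 3.84 on the other arrays. Their part in these differences was not tested.

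At the E9.5 gate, among members whose region and strand went the same way, the largest difference toward the gate was in chr11:76400207-76434732, 73.8 kb from Bhlha9, a limb transcription factor gene. Its member was at 1.35 in gated cells, -3.31 in other GFP+ cells and -1.52 in GFP- cells. At E8.5 it was at -3.01 and -3.28, and at E11.5 at -1.13 in gated and -3.69 in other cells. It was thus higher in gated cells at both stages, by 4.66 and 2.56. The region's other forward member differed by only 0.39 and 0.17 at the 2 gates, and its reverse member by 0.67 and 0.07. The next 2 largest differences toward the E9.5 gate, 3.69 and 3.44, were of members beside Sall1 and are described with that gene.

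On the other side of the E9.5 gate, the member in chr12:81217572-81233910, near 1300014J16Rik, was at -3.27 in gated and -0.41 in other GFP+ cells, a difference of -2.86. A second, in chr9:75316023-75344401 near Gm3648, was at -3.97 and -1.43, a difference of -2.54.

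For gated against GFP- cells of E9.5, besides the member near Bhlha9, large differences were in chr8:49853937-49874087, near 2900073C17Rik, at 0.71 in gated and -2.85 in GFP- cells, and in chr7:48854599-48868579, near Zfp788, at -1.07 and -4.07. For other GFP+ against GFP- cells, among the largest were the member in chr19:44653017-44654777, near Hif1an, at 0.08 in other GFP+ and -2.49 in GFP- cells, and that in chr2:153163620-153170845, at 0.32 and -2.29.

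Toward GFP- cells of E9.5 the largest difference in both comparisons was at 1 locus of chromosome 1. Of the 2 forward members of chr1:42689799-42749799, 1 was at 2.98 in GFP- cells, at -0.65 and -1.48 in gated and other GFP+ cells and between -2.48 and -1.12 on the other 4 arrays. Its nearest gene probe, 0.04 kb away on the opposite strand, is 2610017I09Rik, and the BRN1-A member of the same locus was at 0.61 in GFP- cells of E9.5 and between -3.53 and -1.63 elsewhere. Both were thus highest on that array by over 2 log2 units. The other forward member of chr1:42689799-42749799 was steadier, with a range of 0.84. It differed from GFP- cells by only -0.59 in gated and -0.03 in other GFP+ cells of E9.5. BRN1 is an older name of Pou3f3, a transcription factor gene of the nervous system and kidney. Of 7 neural markers all 7 were well above background on that array, with a summed level of 6.15, against 5 or 6 of 7 and 1.37 to 4.40 elsewhere. Their part in the difference was not tested.

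At the E11.5 gate, the largest difference toward gated cells rests on a spot that the scanner software flagged as non-uniform. This member of chr16:30936314-30954449 was at 7.73 in gated cells of E11.5, on the flagged spot, and between -3.36 and -2.35 on the other 6 arrays, a difference of 10.97 and the widest range of all members. With flagged spots left out it has no value at this gate. The other forward member of the region differed by 0.12 and its reverse member by 0.02, both within the spot noise. Of all members 3 had a flagged spot, each on 1 array.

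The next largest was in chr17:86219507-86220112, 17.7 kb from the probe of Gm4718. It was at 3.07 in gated and -2.11 in other cells of E11.5, at 0.03 and -2.42 in gated and other cells of E9.5, and between -1.98 and -1.26 at E8.5 and in E9.5 GFP- cells. On the same chromosome the member in chr17:86092322-86093123 lies 9.36 kb from the probe of Six2, whose protein keeps nephron progenitors undifferentiated. It was at 4.79 in gated and 2.63 in other cells of E11.5 and between 1.997 and 2.43 on the other 5 arrays. Six2 itself was higher in gated cells by 3.79 at E9.5 and by 7.68 at E11.5. This member was higher in gated cells by 2.16 at E11.5 and by 0.15 at E9.5, within 2 SD of the spot noise.

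Toward other GFP+ cells of E11.5 the largest such differences were in chr10:120336296-120354471, near Gm4473, at -3.09 in gated and 1.06 in other cells, in chr10:87541696-87547421 at -2.77 and 0.89, and in chr6:40699474-40719122, near Mgam, at -4.42 and -0.90. The first was between -1.45 and -0.47 on the other arrays, so both E11.5 values lay outside that span, on opposite sides. In the region of the first, the other reverse member differed by only -0.26.

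**Figure D4:**
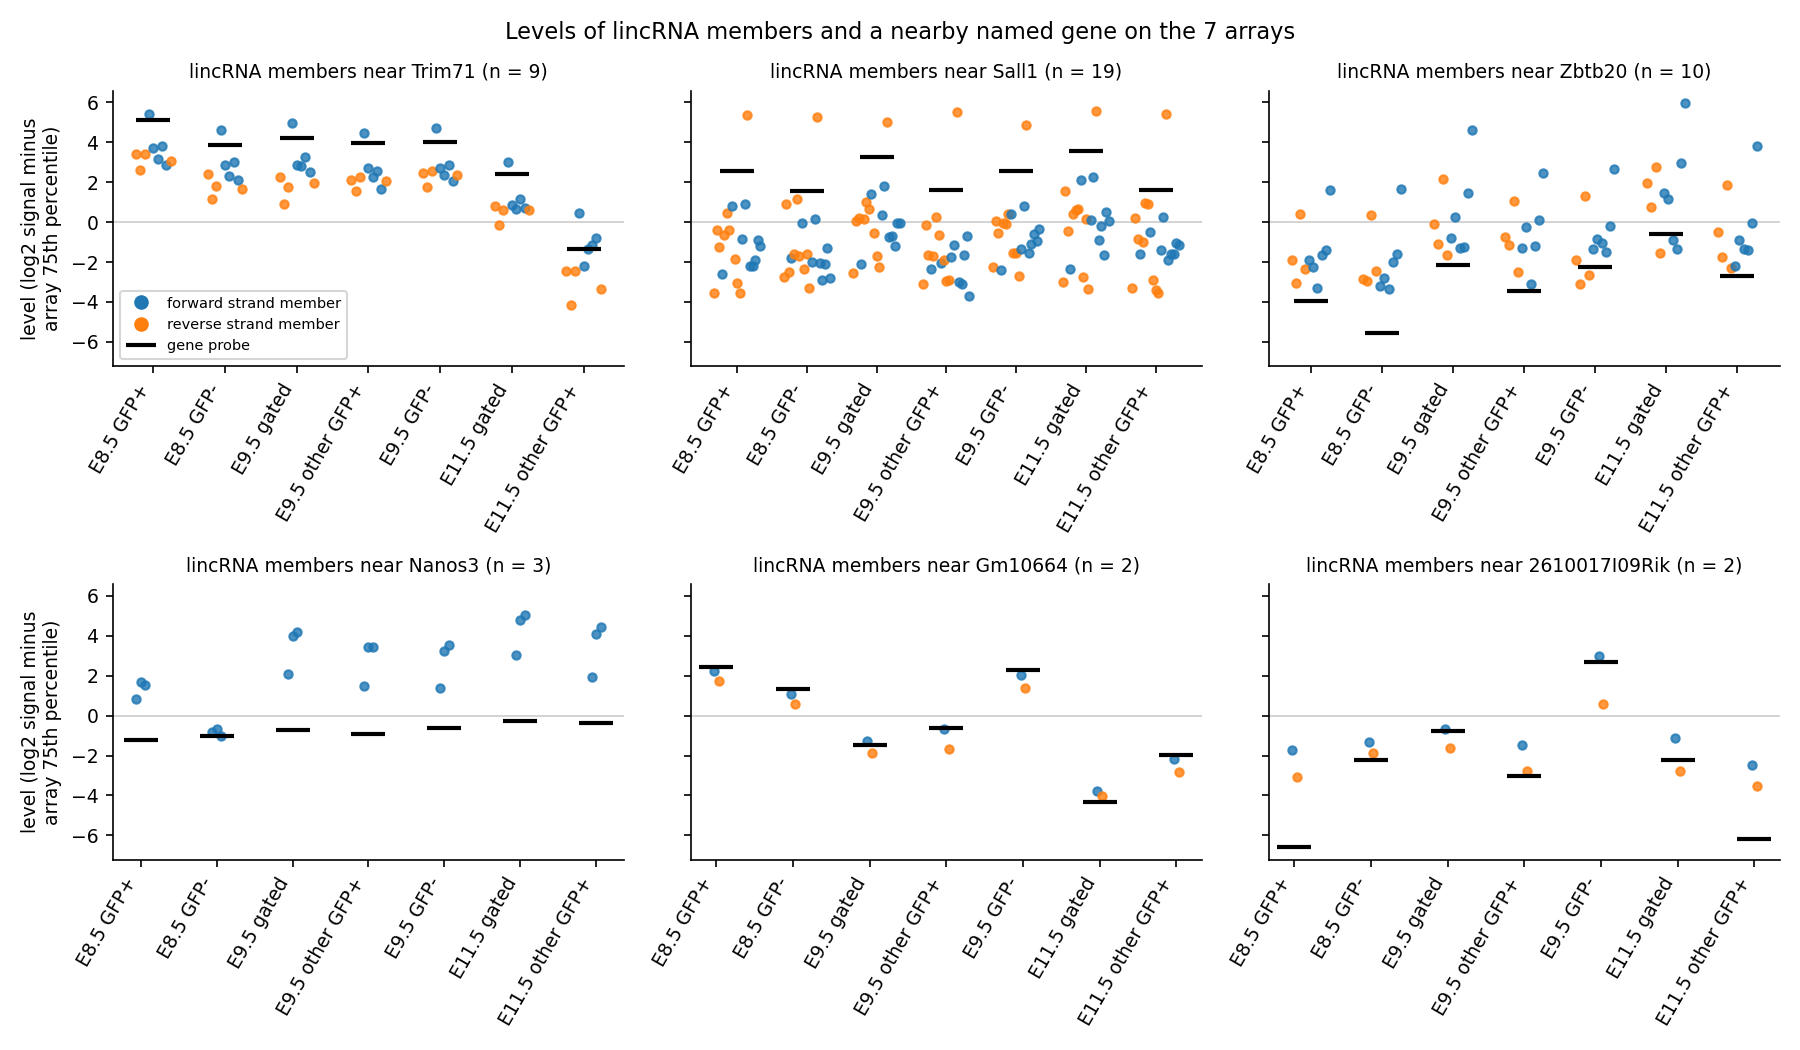
Levels (log2 signal minus the array's 75th percentile) of members near 6 named genes on the 7 arrays, as forward strand members (blue), reverse strand members (orange) and the gene's own probe (black line, which for 2610017I09Rik and Zbtb20 was below the detection limit on 2 and 1 arrays). Members near Trim71 are lowest in other GFP+ cells of E11.5, at -4.17 to 0.45, and the member that stands above the others near Sall1 stays between 4.85 and 5.57.

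Members beside Trim71 moved with that gene. Trim71 is an RNA-binding ubiquitin ligase of early embryonic cells that is repressed by let-7 microRNAs. The regions chr9:114412295-114418384 and chr9:114416254-114416844 hold 9 members, 5 forward and 4 reverse, 2.09 to 3.94 kb from the Trim71 probe. The reverse strand probe printed first was at 3.44 and 2.43 in E8.5 GFP+ and GFP- cells, 2.28, 2.13 and 2.44 in the 3 populations of E9.5, and 0.82 and -2.43 in gated and other cells of E11.5. All 9 members were lower at E11.5 than at E9.5 by at least 2-fold, with differences of -1.05 to -2.16 in gated cells and -2.45 to -5.72 in other GFP+ cells. Over all detected probes 6.69% and 11.0% were at least 2-fold lower in these comparisons. At E11.5 all 9 members were higher in gated cells, by 1.50 to 4.03, beside 7.70% of all detected probes at least 2-fold higher. Over the 7 arrays they followed the Trim71 probe with r of 0.969 to 0.996, and that probe went from 5.12 in E8.5 GFP+ cells to -1.34 in E11.5 other cells. With normexp the median of the 9 was 2.11 in place of 3.04 at the E11.5 gate and -3.51 in place of -4.56 between the stages in other GFP+ cells. Of the 10 widest ranges among all members 5 were in this locus, so they are not 5 independent readings.

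Of the members near Sall1 many were higher in gated cells, 8 of 19 at least 2-fold at both stages. Sall1 encodes a zinc finger protein needed for outgrowth of the ureteric bud and is expressed in nephron progenitors. Of 19 members within 100 kb of the Sall1 probe, in 3 regions, 11 were at least 2-fold higher in gated cells at E9.5 and 10 at E11.5. Over all detected probes 3.95% and 7.70% were. Of the 19 members 0 were 2-fold lower at either gate, beside 3.66% and 6.39%. Below 2-fold 1 was lower at E9.5, with a difference of -0.50, and 4 at E11.5, with differences of -0.76, -0.34, -0.26 and -0.05. The printed probe, 23.3 kb away, was at 0.78 and -0.04 at E8.5, at 1.42, -2.03 and 0.40 in gated, other GFP+ and GFP- cells of E9.5, and at 2.10 and -0.48 in gated and other cells of E11.5. On the later days the other GFP+ cells were thus the lowest. Sall1 itself was higher in gated cells by 1.66 and 1.97, and 8 of the 19 members had r of at least 0.8 with it. At the E11.5 gate the median of the 14 members of chr8:91569369-91594119 was 1.09. It was 1.07 with quantile normalization, 0.94 with the percentile over detected probes, 0.877 with unscaled values and 0.765 with normexp. The members near Sall1 were not uniform. On all arrays 1 reverse strand member stayed between 4.85 and 5.57. The 2 members of chr8:91471819-91551119 nearest to the Sall1 probe, at 2.65 and 2.66 kb, were below 2-fold at both gates.

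The region chr16:43623581-43642715 has Zbtb20, a zinc finger repressor gene, or Tigit as the nearest gene probe of its 10 members. Of these 6 were at least 2-fold higher in gated cells at E11.5 and 4 at E9.5, beside 7.70% and 3.95% of all detected probes. At either gate 0 were 2-fold lower, beside 6.39% and 3.66%, and the lowest difference at E9.5 was -0.06. The brightest was at 1.60 and 1.67 at E8.5, 4.63, 2.45 and 2.68 at E9.5, and 5.97 and 3.81 at E11.5, and so was highest in gated cells of each later stage. Zbtb20's probe, detected on 6 of 7 arrays, was higher in gated cells by 1.32 and 2.08.

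**Figure D5:**
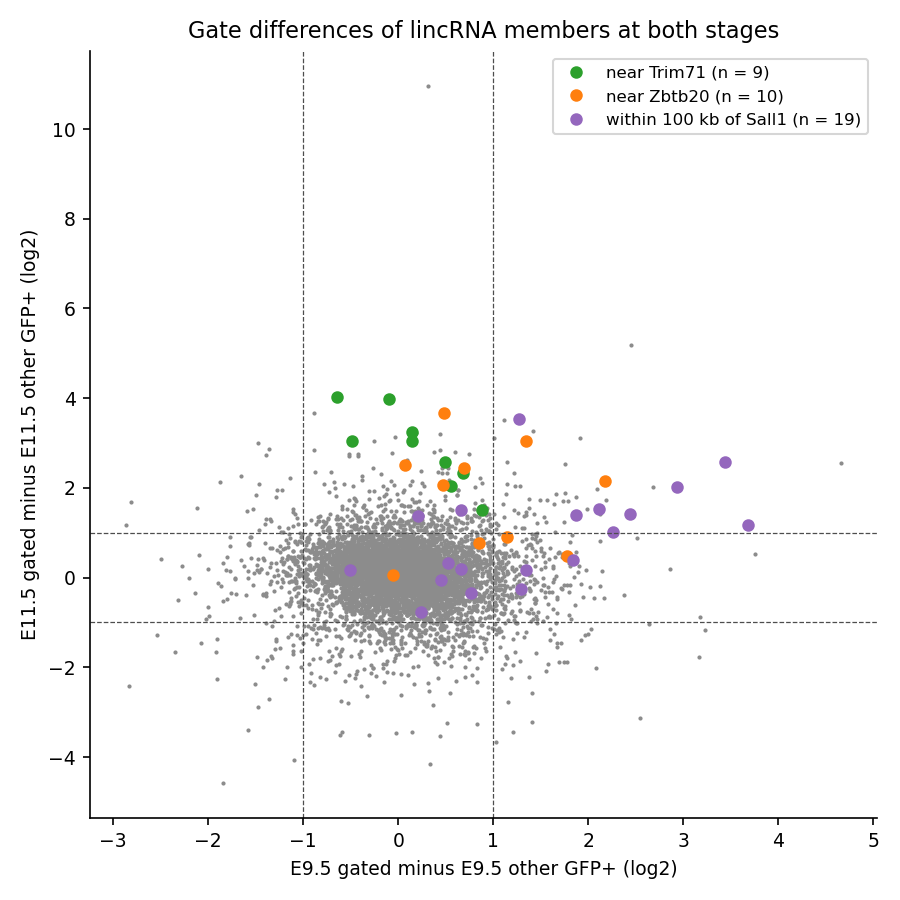
Each grey point is a member, with the gated minus other GFP+ difference at E9.5 (horizontal) and E11.5 (vertical) in log2 units, and dashed lines at 2-fold. Coloured points are members within 100 kb of Sall1 and near Zbtb20, mostly toward the upper right, and near Trim71, high at E11.5 alone.

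The gates of the 2 stages shared a minority of their members. Over all members 6.70% were at least 2-fold higher at the E11.5 gate and 6.19% lower. Of those at least 2-fold higher at E9.5, 59 were also higher at E11.5, 16.2% of the E9.5 list and 12.4% of the E11.5 list, and 53 were lower there, 14.5% and 12.1%. Of those lower at E9.5, 37 were lower at E11.5 too and 31 higher, 15.8% and 13.2% of the E9.5 list. The other detected probes had 204 higher at both and 101 higher then lower, which is 24.8% and 12.3% of their E9.5 list, and 11.1% and 6.81% of their E11.5 lists. Of their list lower at E9.5, 23.8% were lower at E11.5 too and 11.2% higher. Over all the other detected probes 8.01% were higher at the E11.5 gate and 6.45% lower. These are descriptions of 4 arrays, and the 59 members come from 38 regions.

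From E9.5 to E11.5 in gated cells, besides the member near Gm4718, large differences toward E11.5 were in chr14:78957377-78963514, near Dgkh, at -3.95 and -0.49 in gated cells of E9.5 and E11.5, and in chr5:121669792-121732542, near Gm15800, at -2.40 and 0.64. In other GFP+ cells, toward E11.5 the member in chr10:87541696-87547421 was at -3.03 and 0.89, that in chr6:40693617-40720167, near Mgam, at -0.66 and 2.53, and 1 in chr7:6302922-6306477 at -2.92 and 0.13. Toward E9.5 the 3 largest were the Trim71 members.

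Other loci with a wide range followed the stage or the GFP- cells. The 2 members on either strand beside Gm10664, in chr8:67542714-67561694 and chr8:67552315-67561235, were at 2.25 and 1.75 in E8.5 GFP+ cells, 1.08 and 0.61 in E8.5 GFP- cells and 2.02 and 1.40 in E9.5 GFP- cells. They were at -1.25 and -1.85 in gated and -0.65 and -1.65 in other GFP+ cells of E9.5, and at -3.80 and -4.02 in gated and -2.15 and -2.82 in other cells of E11.5. Other forward members of chr8:67542714-67561694 moved less. They differed by -0.67 and -0.28 between gated and GFP- cells of E9.5, and by -0.07 and 0.48 at the E11.5 gate. The Gm10664 probe followed the 2 members beside it with r of 0.988 to 0.997. With normexp their median difference was -0.37 in place of -1.43 at the E11.5 gate and -0.88 in place of -2.36 between the stages in gated cells. In contrast 3 members of chr8:86705694-86711244, the nearest gene probe being Nanos3 at 8.12 to 8.24 kb, were lowest in E8.5 GFP- cells, at -1.02 to -0.69, and highest in E11.5 gated cells, at 3.05 to 5.06. The Nanos3 probe itself went only from -1.21 to -0.28.

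At the other end, the 5 members of smallest range, 0.13 to 0.15, sat at very different levels. The printed member in chr11:59189157-59220607, near Snap47, lay between -0.28 and -0.15, that in chr1:169026196-169032664, near Fam78b, between 3.43 and 3.58, and that in chr9:43921700-43939600, near Gm3906, between -2.52 and -2.37. Steady members were thus found at low and high levels alike.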

How the data were processed

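The submitters' processing notes name Agilent Feature Extraction 10.7.3.1. The deposited intensity of each spot, per the file headers, is the processed signal on the linear scale, with probe positions in mm9. The series' value table equals it. The amplification kit and dye are per the labels. Levels were log2 intensity minus the array's 75th percentile over non-control probes (Python 3.11.15, numpy 2.4.6, pandas 2.3.3). With 1 array per population no test was possible: differences were counted from 2-fold and set beside the share of all 30097 detected autosomal or unmapped probes past it. Named were the 10 brightest, 10 widest and 5 narrowest members, the 3 largest differences per side and comparison whose region and strand went the same way, and the strand extremes. Named regions beyond this rule were chosen after their values were seen. Members and lists were chosen with earlier results of these data known. Some members the rule picks are not reported here. Normexp used limma 3.58.1 (R 4.3.3). Counting was tested on simulated data.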

Additional observations from a re-analysis of the deposited data

Results flagged for a closer look

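Over all members 84 in 70 regions were at least 2-fold to opposite sides of the gate at E9.5 and E11.5. With 1 array per population the difference between stages was not tested. Higher then lower were 53, which is 14.5% of members higher at E9.5, beside 12.3% for the other detected probes. Lower then higher were 31, which is 13.2% of members lower at E9.5, beside 11.2%. Of the 84 members 10 lay in 7 regions with a member named here, and 5, in 4 of them, were named themselves. In each case the value is the E11.5 gate difference minus the E9.5 gate difference in log2 units. In chr8:49853937-49874087, near 2900073C17Rik, it was -5.68 (2.55 at E9.5 and -3.13 at E11.5), while the region's other 4 members differed by -0.08 to 0.26 at E11.5. In chr10:87541696-87547421 it was -4.69 (1.03 and -3.66), and the other forward member differed by 1.75 and -1.88. The 2 members of chr7:6302922-6306477, near Gm3854, gave -3.66 (1.77 and -1.89) and -3.63 (1.56 and -2.07). In chr12:81217572-81233910 the order was the other way, 4.03 (-2.86 and 1.17), as for another reverse member (-1.66 and 2.27), while a forward member was lower at both gates (-2.83 and -2.41).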

How the results depend on the processing

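No paired analysis was possible because each population had 1 array. The comparisons run in this order: E8.5 GFP-positive against GFP-negative; E9.5 gated against other, gated against GFP-negative and other against GFP-negative; E11.5 gated against other; E11.5 against E9.5 in gated and in other cells. With normexp the members at least 2-fold higher/lower were 102/99, 98/39, 114/51, 52/55, 206/157, 143/140 and 188/187. At 4-fold they were 23/56, 30/15, 33/27, 21/33, 84/68, 50/71 and 58/74. With 1 probe per region and strand, over 3179 probes, they were 117/145, 146/83, 122/67, 87/89, 151/173, 138/211 and 166/193. With no detection requirement, over 15664 probes, they were 1834/1290, 1164/2505, 1659/1063, 2919/877, 2344/1521, 1404/2411 and 957/4459, with a median of -0.41 in the last. These counts take in spots below the detection limit and have no share over all probes beside them. Unscaled values gave 215/306 and 133/402 in the third and the fourth, with medians of -0.13 and -0.17, and medians of -0.11 and 0.043 in the fifth and the seventh. The percentile over detected probes gave a median of -0.0472 in the fifth, and quantile normalization 0.0324 in the seventh. Unscaled values moved the median of all detected probes by 0.14, -0.19, -0.21, -0.21 and 0.17 in the first, the third, the fourth, the fifth and the seventh. Detection on the 6 arrays other than E8.5 GFP-negative was chosen after seeing the data and had 8859 probes. It gave 352 lower in the second, 397 higher in the fourth and 1004 lower in the seventh. The looser flag for a positive and significant signal gave 11129 members, and counting regions gave 2423. Of 194 alternatives to 39 named differences 101 moved by less than the spot noise of a difference (SD 0.14), 93 moved more and 0 reversed. Normexp moved all 39. The 10.97 at the E11.5 gate has no value with outlier spots left out, since its spot is flagged. Of 96 locus medians past 2-fold under 4 scalings 13 fell under 2-fold and 0 changed sign. The causes were not tested. With 1 array per population, array-to-array error could not be measured.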
